A study of Canis lupus familiaris with 18 samples.

Results

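POU5F1 and SOX2, the genes of the pluripotency transcription factors OCT4 and SOX2, are 2 of the 84 genes of an RT-qPCR array that was run on mesenchymal stem cells grown from the fat of dogs (cAD-MSCs). Both were chosen by name, as the rows of the deposited table that carry these symbols, and both were found (POU5F1 at array position F02, RefSeq XM_538830; SOX2 at position G01, RefSeq XM_005639752). The cells came from the abdominal fat of 9 healthy female dogs and were sampled at passage 6 (P6) and at passage 3 (P3), 9 samples per passage and 18 in all, with both passages taken from the same donors. They were not given any agent or genetic change, and all were grown in low-glucose medium with fetal bovine serum. The comparison of P6 with P3 asks how longer in vitro culture changes expression. The study calls this in vitro aging. Adherent cultures of this kind start from the whole stromal vascular fraction of the fat, so that cells other than MSCs can be present early on.

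OCT4 belongs to the POU family of DNA-binding proteins and SOX2 to the SOX family, which binds DNA through an HMG box. In embryonic stem cells of mouse and human the proteins bind neighbouring sites as a pair, keep self-renewal genes on, and maintain each other's transcription. SOX2 is also a marker of neural progenitors and of other adult stem cells. POU5F1 measurements are open to processed pseudogenes, which are known in human. SOX2 is a gene without introns in mammals, so that its primers cannot tell cDNA from genomic DNA.

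Each deposited value is a threshold cycle (CT), the point of the PCR at which the fluorescence of a well passes a set level. The lower the CT, the more transcript was present, with about a 2-fold difference per cycle. Each gene had 1 well per sample. A CT under 35 was counted as detected, and every later or undetermined well was set to 35, as the authors' software did. The geometric mean CT of 5 reference genes (ACTB, B2M, HPRT1, PGK1 and RPL13A) was then subtracted, and the sign turned. The result, −ΔCT, is expression relative to the reference genes on a log2 scale. The reference mean lay between 14.13 and 15.12 cycles at P6 and between 14.11 and 15.71 cycles at P3. The genomic DNA control well stayed undetermined in 18 of 18 samples, also in those with the earliest SOX2 wells. Of the 84 genes, 72 to 77 were detected per sample at P6 and 75 to 81 at P3. There is no sequencing depth behind these values, and precision depends on having 9 donors and on the 35-cycle limit. Transcripts of 6 surface markers of MSCs (THY1, ENG, NT5E, CD44, ITGB1 and ALCAM) were read beside the labelled cell type. Their mean CT lay between 15.51 and 23.30 at P6 and between 16.58 and 23.35 at P3. The paper identified the cells at P3 by differentiation and flow cytometry, in which CD73, the protein of NT5E, was not observed. Of the 54 marker wells of each passage, 1 at P6 (ALCAM) and 1 at P3 (THY1) was undetermined, both in donor 9/21.

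POU5F1 transcripts were detected in some samples, and no well crossed before 27.35 cycles. The well crossed before 35 cycles in 7 of 9 donors at P6 and in 6 of 9 at P3 (Fisher's exact test, two-sided p = 1), which gives 13 of 18 samples. Of the 18 wells, 8 crossed before 30 cycles, 4 at P6 and 4 at P3. At P6 the detected wells were those of donor 7/22 at a CT of 27.35, 13/21 at 29.02, 9/21 at 29.52, 1/22 at 29.84, 2/22 at 30.36, 6/22 at 31.57 and 3/22 at 33.22, while those of 6/21 and 14/21 never crossed. At P3 the detected wells were those of donor 7/22 at a CT of 27.64, 9/21 at 27.95, 14/21 at 28.91, 6/21 at 29.58, 2/22 at 31.44 and 1/22 at 31.82. The P3 wells of 13/21 and 3/22 never crossed and that of 6/22 crossed at 36.54, past the limit. The donors without a signal were thus different ones at the 2 passages.

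SOX2 transcripts were detected in 9 of 9 donors at P6 and in 9 of 9 at P3, in 17 of the 18 samples before 30 cycles. The CT at P6 was 22.12 in donor 7/22, 22.84 in 1/22, 24.54 in 2/22, 25.45 in 9/21, 25.92 in 13/21, 26.16 in 14/21, 27.43 in 3/22, 27.65 in 6/22 and 29.01 in 6/21. At P3 it was 23.10 in donor 7/22, 23.98 in 9/21, 24.91 in 14/21, 26.10 in 1/22, 26.73 in 2/22, 27.48 in 6/22, 29.15 in 13/21, 29.52 in 3/22 and 30.25 in 6/21. Donor 7/22 had the earliest SOX2 well at each passage and donor 6/21 the latest.

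Mean POU5F1 expression was nearly equal at the passages, with wide scatter between donors. Its −ΔCT had a lowest value of −20.26, a median of −15.59 and a highest of −13.22 at P6, against −20.56, −16.11 and −13.37 at P3. The ranges overlap almost fully, and the lowest values of each are set by the limit of 35 cycles. The means were −16.56 ± 2.54 at P6 and −16.52 ± 2.88 at P3 (SD, n = 9 donors each). On the log2 scale P6 minus P3 came to −0.03 with a standard error of 1.23 (limma over the 84 genes, adjusted p = 0.996), or 0.977-fold with a 95% confidence interval of 0.162 to 5.89. The interval reaches far to both sides of 1, so that the data bound the change of POU5F1 only loosely.

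The near-zero mean of POU5F1 was made up of large differences in opposite directions. Its −ΔCT was higher at P6 in 6 of 9 donors and lower in 3. The wells of donors 14/21 and 6/21 gave differences of −5.96 and −5.14, and that of 13/21 one of 5.83, each between a well that crossed before 30 cycles and one that never crossed. In donor 6/22 the difference was 3.17, from a CT of 31.57 at P6 against one of 36.54 at P3. These 4 differences, and that of 3/22 (0.96), rest on a well at the limit. They are bounds on the log2 scale only if the well held too little transcript to cross in time. With 1 well per gene and sample, a failed well would look the same, and this was not tested. Abundant genes also had undetermined wells, such as ALCAM at P6 (mean CT of 18.99 at P3). The 4 donors detected at both passages differed by less: −1.45 in 9/21, 1.39 in 1/22, 0.61 in 2/22 and 0.31 in 7/22. Left out singly, donors 14/21, 6/21 and 9/21 turned the sign of the mean difference (to 0.71, 0.61 and 0.14), and without 13/21 it was −0.77. It was −1.68 in the 4 donors numbered /21 and 1.29 in the 5 numbered /22 (adjusted p = 0.899 and 0.870 from limma). In a bulk RNA sample, fewer cells that carry a transcript and less of it per cell cannot be told apart.

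SOX2 expression did not differ detectably between the passages. Its −ΔCT had a lowest value of −13.97, a median of −11.42 and a highest of −7.72 at P6, against −15.49, −11.49 and −8.99 at P3. The ranges overlap, with 2 of the 9 P6 values above the highest at P3 and 3 of the 9 P3 values below the lowest at P6, and the medians lie within 0.07 of each other. The means were −11.03 ± 2.20 at P6 and −11.95 ± 2.40 at P3 (SD, n = 9 donors each). On the log2 scale P6 minus P3 came to 0.93 with a standard error of 1.05 (limma, adjusted p = 0.873), or 1.90-fold with a 95% confidence interval of 0.412 to 8.77. This fit takes the passages as unpaired, so that its interval also holds the spread between donors. With the donor as a block, limma gave the same difference with adjusted p = 0.741. Before adjustment the limma p was 0.107 with the block and 0.389 without it. SOX2 was higher at P6 in 6 of 9 donors, by 3.08 in 13/21, 2.67 in 1/22, 1.72 in 2/22, 1.52 in 6/21, 1.27 in 3/22 and 1.00 in 7/22. It was lower at P6 in 9/21 (−1.35), 14/21 (−1.12) and 6/22 (−0.43). The difference was 0.53 in the donors numbered /21 and 1.24 in those numbered /22 (adjusted p = 0.948 and 0.870 from limma).

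**Figure D1:**
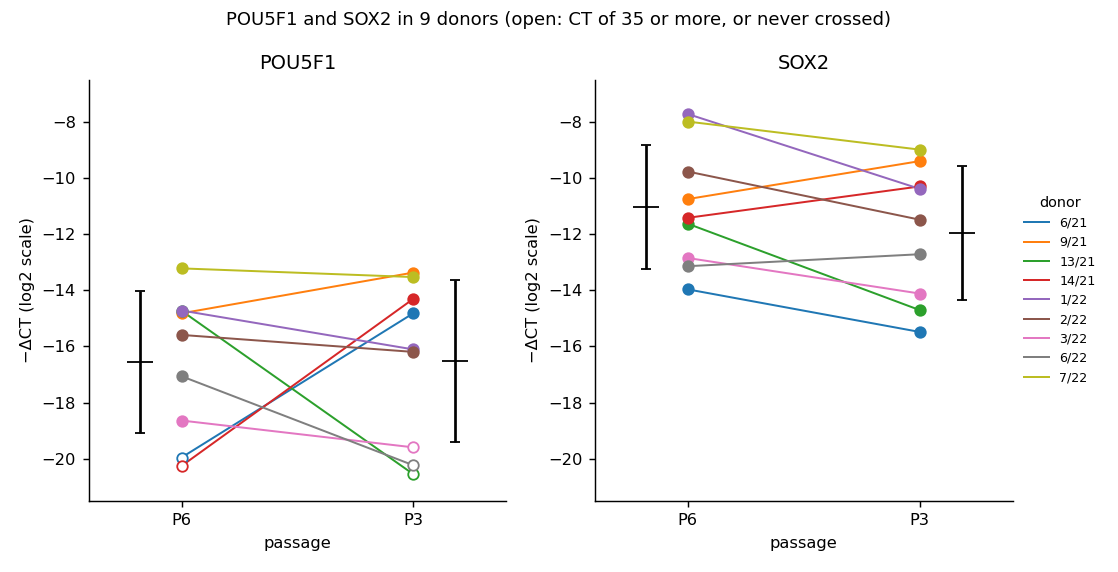
Expression (−ΔCT, log2 scale) of POU5F1 (left) and SOX2 (right) at P6 and P3, with a line for each of the 9 donors and black bars for the mean ± SD. Open circles are wells at or past 35 cycles; the lines of POU5F1 cross widely (donors 13/21, 14/21 and 6/21), whereas the 5 donors with the highest SOX2 values at P6 are also those with the 5 highest at P3.

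Of POU5F1 and SOX2, 0 of 2 passed the test of P6 against P3. Over the 84 genes limma called 1 (1.19%), PTPRC, which encodes the leukocyte antigen CD45 and was lower at P6 (log2 difference −4.38, adjusted p = 0.0300 from limma), and none was called higher (0%). PTPRC was detected in 4 of 9 donors at P6 and in 9 of 9 at P3. Its other P6 wells were set to the CT limit, so that the size of −4.38 depends on that limit. At an unadjusted p under 0.05 limma gave 5 genes, all lower at P6. The exact permutation test, over the 18 samples without regard to donor, called 0 after adjustment and also gave 5 before it. With the donor as a block limma called 2 genes, PTPRC and ITGAX, and neither POU5F1 nor SOX2. The median log2 difference over the 84 genes was −0.05. In size the difference of SOX2 ranked 32nd of the 84 and that of POU5F1 79th. PTPRC and ITGAX, the 2 leukocyte markers on the array, had a summed level on the log2 scale of −19.87 to −15.52 at P6 and of −15.19 to −6.59 at P3. ITGAX was detected in 3 of 9 donors at P6 and in 8 of 9 at P3, so that these sums also hold wells set to the limit. The lowest P6 sum is that of a sample with both genes at the limit and is not a measured level. The part of leukocyte RNA in the POU5F1 and SOX2 values was not tested.

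SOX2 had an earlier well than POU5F1 in 17 of 18 samples, and the exception was the P3 sample of donor 6/21. The POU5F1 CT minus the SOX2 CT of the same sample needs no reference gene. It was 5.53 ± 1.74 cycles at P6 and 4.57 ± 2.25 cycles at P3 (SD, n = 9 donors each), with ranges of 3.10 to 8.84 and of −0.67 to 7.52. POU5F1 was under 35 cycles in 13 of 18 samples. In the others the gap used a POU5F1 CT set to 35, also at the upper end of both ranges (14/21 at P6 and 6/22 at P3). By an exact two-sided permutation test the widening of 0.96 cycles at P6 had p = 0.350. With a CT limit of 40 the widening was 0.79 cycles and with one of 32 it was 1.16 (exact permutation tests, p = 0.652 and 0.153). The gap was wider at P6 in 7 of 9 donors, and a difference between the passage effects of the 2 genes was not detectable. Without donor 6/21 it was 0.25 cycles and without 14/21 0.48 (exact permutation tests, p = 0.761 and 0.687). The assays use different primers, so that the gap also holds any difference in their efficiency.

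Both transcripts were among the later ones on the array. In the order of mean CT at P6, SOX2 ranked 58th and POU5F1 74th of the 84 genes, and at P3 they ranked 63rd and 77th. Over the 18 samples SOX2 was followed in this order by GDF15, a stress-induced cytokine gene. The neighbours of POU5F1 were PTPRC and the insulin gene INS. The mean CT of SOX2 was 25.68 ± 2.25 at P6 and 26.80 ± 2.52 at P3, close to that of GDF15, which was 27.09 ± 2.19 at P6 and 25.95 ± 1.89 at P3 (SD, n = 9 donors each). The GDF15 means lie within 1 SD of those of SOX2. The mean CT of POU5F1 was 31.21 ± 2.69 at P6 and 31.37 ± 3.05 at P3 (SD, n = 9 donors each). The SD of −ΔCT over all 18 samples was 2.28 for SOX2 and 2.64 for POU5F1, near the median of 2.22 over the 84 genes. Detection in 13 of 18 samples put POU5F1 above 7 genes that were detected in fewer.

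**Figure D2:**
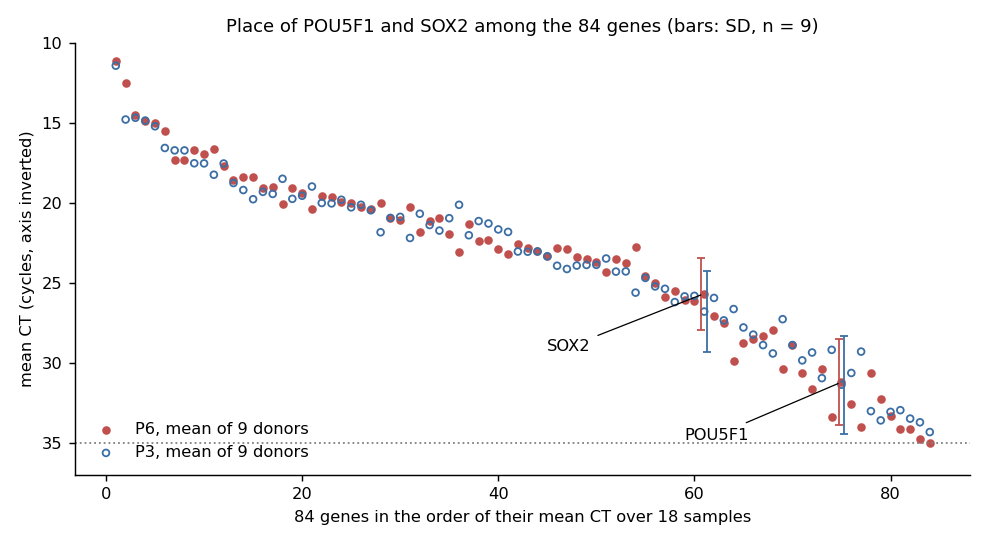
Mean CT of each of the 84 genes at P6 (filled) and P3 (open), in the order of the mean over 18 samples, on an inverted axis in cycles; bars on POU5F1 and SOX2 are SD over 9 donors and the dotted line is the limit of 35 cycles. SOX2 lies in the later part of the order at 25.68 and 26.80 cycles and POU5F1 close to the limit at 31.21 and 31.37 cycles.

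Donors with a high SOX2 level at P6 were mostly those with a high level at P3. Across the 9 donors Pearson's r between the −ΔCT values of the passages was 0.77, with p = 0.0190 by an exact two-sided permutation test. Spearman's rho was 0.75, with p = 0.0255 by the same exact test. Adjustment was planned over both genes, but POU5F1 had too few donors detected at both passages for a correlation. With the 1 relation left in the family, the adjusted values are the same. An adjustment over both genes could have given larger values. The donors 7/22, 1/22, 2/22, 9/21 and 14/21 made up the upper 5 at both passages, and 6/21, 3/22, 13/21 and 6/22 the lower 4. Without the 2 donors farthest from the P3 median, 6/21 and 13/21, r was 0.72 in 7 donors (exact permutation test, p = 0.0690) and the relation was no longer past the threshold, and rho was 0.57 (exact permutation test, p = 0.20). The smaller n and the donors removed cannot be told apart here. The call was also lost without 6/21 alone (r = 0.68, exact permutation test, p = 0.0688) or without 7/22 (r = 0.70, exact permutation test, p = 0.0542). Values within the donors numbered /21 (4) or /22 (5) were not computed, since each has under 6 donors. Over the 51 genes detected in all samples the median r of the same kind was 0.45, and 7 of them had a higher r than SOX2. Since each donor has 1 well per passage, the order of neighbouring donors, such as 1/22 and 7/22 at P6, which lie 0.27 apart, has no error estimate.

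For POU5F1 no such correlation was computed, since 4 donors had a CT under 35 at both passages. Donor 7/22 held rank 1 at P6 and rank 2 at P3. Donors 14/21 and 6/21 were the 2 undetermined ones at P6 and held ranks 3 and 4 at P3, and 13/21 held rank 3 at P6 and was undetermined at P3. Donors 3/22 and 6/22 were in the lower 4 at both passages.

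**Figure D3:**
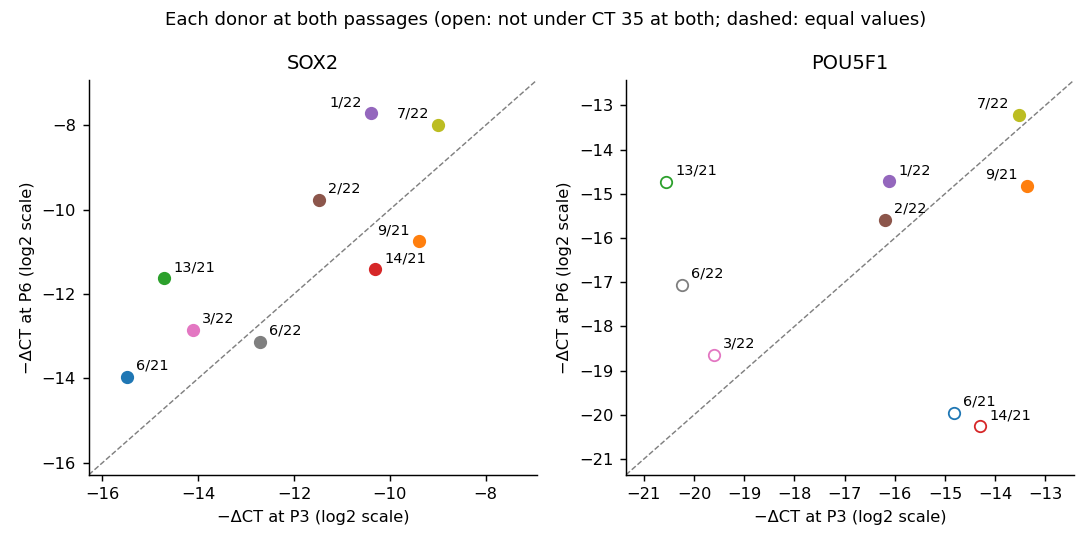
The −ΔCT (log2 scale) of each donor at P6 (vertical axis) against P3 (horizontal axis) for SOX2 (left) and POU5F1 (right); open circles are donors not under CT 35 at both passages and the dashed line marks equal values. SOX2 donors with higher values at P6 tend to have higher values at P3 (r = 0.77), with 13/21 and 1/22 the farthest above the line (3.08 and 2.67 units), while POU5F1 donors 14/21, 13/21 and 6/21 lie more than 5 units from it.

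Samples with more SOX2 also tended to have more POU5F1. The Spearman rho of their −ΔCT values over the 18 samples was 0.70, and it was 0.70 within the 9 samples of P6 and 0.72 within the 9 of P3. Over the 13 samples in which both were detected rho was 0.70, and on CT values without any reference gene it was 0.73 over all 18. Donor 7/22 had high levels of both genes at both passages, and 3/22 low levels of both. Against this run the P3 sample of 6/21, with the lowest SOX2 value of all and a POU5F1 well at 29.58 cycles, and the P6 sample of 14/21, with a middle SOX2 value (CT of 26.16) and no POU5F1 signal. These coefficients are descriptions with no test: the samples are pairs from 9 dogs, and both values of a sample share its RNA, its cDNA and its reference genes.

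**Figure D4:**
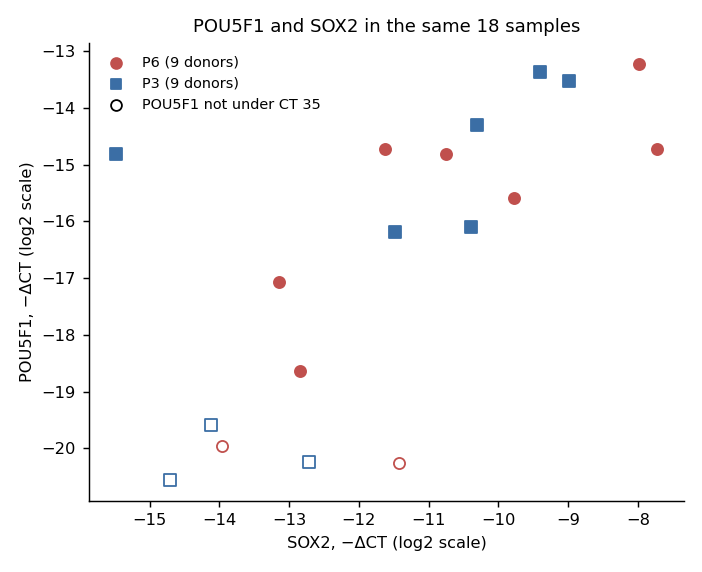
POU5F1 against SOX2 (both −ΔCT, log2 scale) in the 9 P6 samples (circles) and the 9 P3 samples (squares), open where POU5F1 was not under CT 35. POU5F1 rises with SOX2 over most samples (rho of 0.70), and the P3 sample of donor 6/21 at the upper left lies off this run.

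By the same measure, the 3 genes most like POU5F1 among the other 83 were SOX2, SMURF1 (rho of 0.70) and PTK2 (0.61). Those most like SOX2 were BDNF (0.72), PTK2 (0.72) and POU5F1. Ranks 4 to 6 in the list of SOX2 had rho values of 0.69, 0.69 and 0.68, close to that of POU5F1. POU5F1 was under 35 cycles in 13 of the 18 samples. In the others its CT was set to the limit, so that their order in −ΔCT follows the reference genes alone. SMURF1 encodes a ubiquitin ligase that targets BMP pathway SMADs, PTK2 the focal adhesion kinase and BDNF a neurotrophin. SMURF1 and POU5F1 had a rho of 0.83 within P6 and of 0.77 within P3, and BDNF and SOX2 one of 0.65 within P6 and of 0.80 within P3. On CT values without a reference gene, SMURF1 led the list of POU5F1 with a rho of 0.87, and SOX2 stood at rank 4 with 0.73, after BGLAP, the osteocalcin gene (0.76), and PTK2 (0.74). In the list of SOX2, POU5F1 then held rank 1, BDNF rank 3 and PTK2 rank 6. The size of the variation differed: SMURF1 had an SD of 0.42 at P6 and 0.559 at P3 and PTK2 one of 0.635 at P6 and 0.492 at P3, whereas BDNF had 2.79 at P6 and 2.05 at P3, all in −ΔCT units. None of these 3 genes differed detectably between the passages, with log2 differences of 0.06 for SMURF1, 0.05 for PTK2 and 0.33 for BDNF.

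The other stemness genes of the array did not pass the test either. This group of 6 holds POU5F1, SOX2, the growth factor gene FGF2, the cytokine gene LIF, the Wnt ligand gene WNT3A and INS. FGF2 and LIF proteins sustain embryonic stem cells in culture, in human and mouse. At P6, 3 of the 6 had a higher mean and 3 a lower one than at P3, with a median log2 difference of 0.03 and adjusted p-values from 0.873 to 0.996 (limma). FGF2 was the most abundant, with −ΔCT values of −5.35 ± 0.703 at P6 and −5.44 ± 0.639 at P3 (SD, n = 9 donors each) and a log2 difference of 0.09. Its donors lay far closer together than those of SOX2 or POU5F1. LIF was detected in 9 donors at P6 and 8 at P3, with −ΔCT values of −10.87 ± 2.83 at P6 and −11.36 ± 3.70 at P3 (SD, n = 9 donors each) and a log2 difference of 0.49. The undetermined LIF well was that of donor 7/22 at P3, a sample with early POU5F1 and SOX2 wells. The difference of LIF was −0.96 without donor 7/22 and 1.73 without 9/21. INS was detected in 8 donors at P6 and 7 at P3 (log2 difference −2.11), and its P3 mean holds 1 well of donor 14/21 at 13.29 cycles, against 30.05 cycles for the next earliest INS well. Without donor 14/21 the difference of INS was 0.25, and 6 of 9 donors were higher at P6. The directions of LIF and INS in the count above thus each depend on 1 donor. WNT3A was detected in 1 of 18 samples, again the P3 sample of donor 14/21, at 28.96 cycles, and its log2 difference was −0.87, or −0.24 without that donor.

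**Figure D5:**
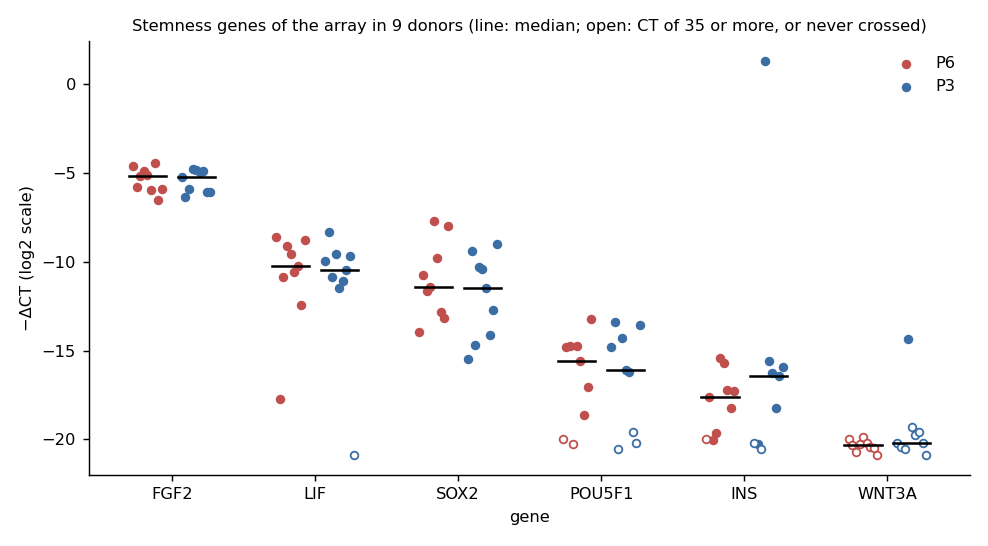
Expression (−ΔCT, log2 scale) of the 6 stemness genes in the 9 donors at P6 (red) and P3 (blue), with lines at the medians and open circles for wells at or past 35 cycles. FGF2 is tight around medians of −5.15 at P6 and −5.21 at P3, SOX2 spans 7.76 units, and POU5F1, WNT3A, INS and LIF have wells at the limit.

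No gene of the related lists passed the test. Among 8 genes of signals known to act on self-renewal in embryonic stem cells (LIF, FGF2, BMP4, WNT3A, CTNNB1, SMAD4, TGFB1 and KITLG), 4 had a higher and 4 a lower mean at P6, none passed the test, and the median log2 difference was 0.02. Among 6 genes of neural and neural crest progenitors (NES, NGFR, SOX9, PROM1, NOTCH1 and BDNF), 4 were higher and 2 lower in the mean, none passed, and the median was 0.18. SOX9, a SOX family gene of cartilage and neural crest, had −ΔCT values of −8.18 ± 1.20 at P6 and −8.21 ± 0.893 at P3 (SD, n = 9 donors each) and a log2 difference of 0.03. NES, which encodes the neural progenitor filament nestin, had a log2 difference of 1.66 in means and of 0.06 in medians, with an undetermined well in donor 7/22 at P3, and of −0.11 in means without that donor. The 4 genes listed as markers of neural or glial progenitors (NES, NGFR, SOX9 and PROM1) had a summed level on the log2 scale of −5.73 to −3.35 at P6 and of −9.53 to −4.31 at P3. Of the 4, NES had the highest mean −ΔCT at P6, −5.33 against −8.18 for SOX9, −13.67 for NGFR and −14.27 for PROM1. The lowest P3 sum is that of donor 7/22, with its undetermined NES well. The part of these markers in the SOX2 values was not tested.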

How the data were processed

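RNA of cAD-MSCs from 9 dogs at P6 and P3 was measured by SYBR Green RT-qPCR on a 96-well array, with cDNA from 800 ng of RNA per sample. For each sample the deposited table gives the CT of every well in cycles, with no upper limit applied. The authors also deposited mean CT and mean ΔCT per passage, and a table of their own fold changes, which was not used. Here CT values above 35 or undetermined were set to 35 and each CT was taken relative to the geometric mean of the 5 reference genes. The mean ΔCT of every gene was within 0.00489 of the authors' deposited mean. P6 was compared with P3 over the 84 genes with limma 3.58.1 in R 4.3.3 (two-sided, no donor block, as the methods' test is unpaired) with Benjamini-Hochberg adjustment and a threshold of 0.05. Detection was compared with Fisher's exact test, and single values with exact permutation tests. The limma fit was tested on simulated data. The exact permutation tests of the gap and of the correlation were compared with library versions on random values. Figures were drawn with matplotlib 3.10.9.

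The passages are paired, since both samples of a donor come from the same dog. Deviations from the passage means correlated within donors with a median coefficient of 0.161 (lowest 0.066, highest 0.643) and exceeded 0.1 in 6 of 9 donors. Between different donors the median was −0.034. Named are both genes, the other 4 stemness genes, SOX9 and NES, the 3 genes most like each, genes past the threshold, and the neighbours in the order of mean CT, of which 1 is not reported here. ITGAX and BGLAP were named after their values were seen, and other genes appear only as members of a list. The genes, lists and tests were chosen with earlier results of these data known. Marker lists were those of MSCs, leukocytes, neural or glial progenitors, adipocytes, and endothelial and mural cells. None of the 4 adipocyte markers and none of the 5 endothelial and mural markers passed the test. Alternatives were the donor block, other CT limits, other reference genes, other tests, a filter on late genes and each donor left out. No sequences are given, as no sequence of either gene was used here.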

Additional observations from a re-analysis of the deposited data

Results flagged for a closer look

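A sample was picked out where it stood so far from all other donors of its passage that this distance made up most of the spread of the 9 values. In 28 groups of a named gene and a passage, 6 samples were picked out, and chance alone picks out about 1 in 20 groups. None was a value of POU5F1 or SOX2, whose largest share of the range was 0.213.

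The 6 values, all −ΔCT on the log2 scale, came from genes named beside POU5F1 and SOX2. INS stood at 1.32 in the P3 sample of donor 14/21, against −20.56 to −15.59 in the other donors. WNT3A stood at −14.35 in the same sample, against −20.89 to −19.29. In that sample POU5F1 was at −14.30 and SOX2 at −10.30, both inside the range of the other donors. LIF and NES were undetermined in the P3 sample of donor 7/22 and so stood at −20.89, against −11.47 to −8.31 for LIF and −6.99 to −4.39 for NES in the others. POU5F1 and SOX2 crossed early in that sample, at 27.64 and 23.10 cycles. LIF stood at −17.71 in the P6 sample of donor 9/21, against −12.43 to −8.59. GDF15 stood at −17.72 in the P6 sample of donor 13/21, against −13.27 to −10.53.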

How the results depend on the processing

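SOX2 stayed higher at P6 and not past the threshold under all 24 alternatives (0.53 to 1.24), and detection of either gene changed no call. Every SOX2 well crossed by 30.25 cycles, so the other CT limits and leaving out late wells could change neither its difference nor its detection. The donor block, the exact permutation test and the filter on late genes also leave the SOX2 difference as it is by construction. With single donors removed in turn the log2 difference of SOX2 lay between 0.66 and 1.21, and with the donor as a block it was unchanged at 0.93 (adjusted p = 0.741 from limma). POU5F1 kept its call under its 23 alternatives and turned its sign in 8, to 0.14 with a CT limit of 40, 0.030 without ACTB and B2M, 0.16 without reference genes, 1.29 in the donors numbered /22, 0.12 without donors 9/21 and 7/22 (chosen after seeing the data), and to 0.61, 0.14 and 0.71 without 6/21, 9/21 or 14/21 (−0.77 to 0.71 over all donors removed singly). With late wells left out it was −0.82, and with the block −0.03. The filter on late genes removed POU5F1. The gap between the genes lay between 0.25 (without 6/21) and 1.53 cycles (without 6/22) in such fits, and the block changed only its p (exact sign-flip test, p = 0.410). The SOX2 correlation between the passages lay between 0.68 and 0.82 in them and lost its call without 6/21 or 7/22. The count of genes called was 1; it was 2 with the block, the median of detected genes, no reference or the filter on late genes, 3 with robust regression, and 0 with late wells left out, without ACTB and B2M, by the methods' test after Benjamini-Hochberg adjustment, by the exact permutation test, in the donors numbered /21 or /22 alone and without 9/21 and 7/22. With 1 donor removed it lay between 0 and 2, at 0 without 6/21, 13/21, 3/22, 6/22 or 7/22 and at 2 without 14/21 or 1/22. At an unadjusted p under 0.05 the settings that called 0 gave 2 to 7 genes. The methods' test gave 4 there, of which 2 also differed by over 2-fold. Without the donor of an outlying well (chosen after seeing the data), INS was 0.25, NES −0.11 and LIF −0.96 or 1.73. The median of detected genes shifted all differences by −0.16 and no reference by 0.20 in the median. Values at 35 cycles are bounds unless the well failed, which was not tested.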
